A study of Oryctolagus cuniculus with 12 samples.

Results

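The genes described here encode proteins of the cornified envelope, the crosslinked protein shell of dead surface keratinocytes, and the enzymes that assemble or take apart the layer it forms. Of 10 genes listed, 9 had a row in the table of 29587 rabbit genes, and all 9 passed the filter of a mean of at least 1 FPKM (fragments per kilobase of gene, scaled to the size of each library). EVPL, PPL, TGM1, TGM5, SPINK5, KLK7, CASP14 and KRTDAP were found by symbol, and FLG2 by its protein name, filaggrin-2. No row carried the symbol TGM3. The row ENSOCUG00000001114, described as protein-glutamine gamma-glutamyltransferase E, the protein TGM3 encodes, is given beside the 9 members as the TGM3 row and is in none of their counts. The genes were listed by function, with earlier results of these data known, and FLG2, EVPL, SPINK5, KRTDAP, TGM5 and TGM3 also stand in gene lists the study drew from these same samples, so their direction is not independent evidence.

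Bulk RNA-seq was performed on full-thickness ear tissue of wild-type female rabbits, given as 10 to 12 weeks old at purchase. Each of 4 groups had 3 rabbits in the study and 3 samples here, which the study describes as biologically independent. That each sample came from a different rabbit is not stated and was assumed. NS was normal ear skin. HS was untreated hypertrophic scar, raised by round 7 mm wounds on the ventral ear, from which newly formed tissue was repeatedly removed and which were taken as scars at day 21. In the drug-loaded MNs group each scar was given separating microneedles of gelatin methacryloyl that carried a peptide prodrug of 5-fluorouracil acetic acid, a derivative of the injected drug, 1 patch per lesion, on days 22, 29 and 36. Scars of the 5-Fu injection group received 120 μg of free 5-fluorouracil, an antimetabolite that blocks thymidylate synthesis, in 0.1 mL per lesion on the same days. All scar tissue was taken on day 43. The tissue holds epidermis from both faces of the ear, dermis and cartilage, so each value is a mixture of cell types, and microneedles without drug were not analysed here.

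In the upper epidermis, keratinocytes lay envoplakin and periplakin under the cell membrane as a scaffold, and transglutaminases then crosslink further proteins onto it. Kallikrein-related proteases such as KLK7 later cut the corneodesmosomes that hold the dead cells together, and LEKTI, the product of SPINK5, holds these proteases in check. Caspase-14 takes part in the breakdown of filaggrin to small hygroscopic molecules, which keep the surface layer moist.

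The samples had 10521472 to 14043667 reads on genes, and the members had from 20 reads (CASP14 in its lowest sample) to 10472 reads (KRTDAP in its highest). Markers matched the labelled tissue: the summed FPKM of 9 basal keratinocyte genes was 486 to 1937 in every sample, and that of 8 cartilage genes 474 to 5631. The summed level of 11 dermal fibroblast genes was 3040 to 4341 in NS and 40518 to 52210 in HS. After the treatments it was 21144 to 29385 with drug-loaded MNs, and 5983, 29217 and 7695 in the 5-Fu injection replicates, so replicate 2 of that group stood apart from its group and lay in the range of the drug-loaded MNs. Replicate 1 of that group stood apart in other genes, with a cartilage sum of 5631 FPKM, against 474 and 974, and the T cell gene CD3E at 41.6 FPKM, against 5.72 and 4.62. The cartilage sum also varied in HS (491, 1005 and 4878 FPKM) and with drug-loaded MNs (877, 2373 and 5144), and NS replicate 2 had an immune gene sum of 579 FPKM, against 216 and 168. Comparisons of the 5-Fu injection group are therefore also given without replicate 1 or 2; the part of these cells in the members' values was not tested.

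Among the structural proteins, KRTDAP had the highest FPKM of the 9 members and FLG2 the lowest. The row of KRTDAP, ENSOCUG00000010912, which encodes keratinocyte differentiation-associated protein, a small protein secreted by suprabasal cells, lies on scaffold GL018786 from 342194 to 345047 on the reverse strand. KRTDAP was at 1214, 817 and 898 FPKM in NS and at 687, 235 and 325 in HS. It was at 1033, 834 and 1789 FPKM with drug-loaded MNs and at 1605, 625 and 1406 after 5-Fu injection. Every HS sample was below every NS and every drug-loaded MNs sample, while 1 5-Fu injection sample fell below the highest HS sample. Its coordinates overlap those of GAPDHS on the other strand, and those of PPL overlap ROGDI on the same strand; whether reads were shared was not tested.

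EVPL, envoplakin (ENSOCUG00000014548, scaffold GL018843, 624205 to 640308, forward strand), was at 18.2, 12.9 and 27.2 FPKM in NS and at 5.63, 11.6 and 10.7 in HS. With drug-loaded MNs it was at 15.7, 23.0 and 24.1 FPKM, and after 5-Fu injection at 20.3, 12.2 and 18.0. All HS samples were thus below all 9 other samples. Its partner PPL, periplakin (ENSOCUG00000011525, scaffold GL018787, 1065007 to 1108302, reverse strand), was at 73.7, 46.3 and 87.0 FPKM in NS and at 33.4, 58.3 and 53.2 in HS. PPL was at 72.8, 88.8 and 65.7 FPKM with drug-loaded MNs and at 78.2, 38.9 and 36.1 after 5-Fu injection. Only the drug-loaded MNs samples lay apart from HS for PPL.

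FLG2 (ENSOCUG00000011836, chromosome 13, 39870586 to 39878853, forward strand), a large filaggrin-like protein of the granular and cornified layers, was a low transcript. It was at 4.42, 0.621 and 1.93 FPKM in NS, at 1.48, 3.10 and 4.03 in HS and at 7.14, 11.9 and 5.62 with drug-loaded MNs. After 5-Fu injection replicate 1 was at 7.69 FPKM and the others at 1.48 and 1.23. The HS values lay within the range of NS, and all drug-loaded MNs samples were above all NS and HS samples.

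Of the transglutaminases, TGM5 (ENSOCUG00000000551, chromosome 17, 29014612 to 29050105, forward strand), which crosslinks early envelope proteins, separated NS from HS most widely. It was at 8.19, 8.40 and 8.44 FPKM in NS and at 1.41, 2.28 and 1.81 in HS. With drug-loaded MNs it was at 4.24, 6.23 and 6.69 FPKM, between these groups and overlapping neither. After 5-Fu injection replicate 1 was at 7.81 FPKM, near NS, and the others at 1.93 and 3.33, near HS. The TGM3 row (chromosome 4, 9395743 to 9497514, forward strand), for the zymogen that crosslinks envelope precursors and hair proteins, was at 38.7, 28.6 and 56.4 FPKM in NS and at 12.3, 11.2 and 14.3 in HS. It was at 16.6, 41.1 and 39.8 FPKM with drug-loaded MNs and at 18.5, 24.3 and 28.4 after 5-Fu injection, so HS was below all 9 other samples here too. TGM1 (ENSOCUG00000031181, chromosome 17, 44289029 to 44304903, reverse strand), the membrane-bound transglutaminase whose loss causes lamellar ichthyosis, differed less. It was at 10.5, 7.92 and 10.1 FPKM in NS, at 8.47, 5.99 and 6.59 in HS, at 7.55, 13.5 and 17.1 with drug-loaded MNs and at 17.5, 6.91 and 8.24 after 5-Fu injection, and no pair of groups was free of overlap.

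KLK7 (ENSOCUG00000007574, scaffold GL019228, 60442 to 65048, reverse strand), a chymotrypsin-like protease of the cornified layer, was at 174, 102 and 101 FPKM in NS and at 85.9, 53.4 and 61.9 in HS. It was at 102, 133 and 233 FPKM with drug-loaded MNs and at 142, 76.4 and 80.5 after 5-Fu injection. Its inhibitor gene SPINK5 (ENSOCUG00000008779, chromosome 3, 30003005 to 30079929, forward strand) was at 45.2, 24.8 and 56.6 FPKM in NS and at 44.6, 27.1 and 30.9 in HS. SPINK5 was at 58.8, 83.8 and 133 FPKM with drug-loaded MNs, above every sample of each other group, and at 45.8, 46.0 and 58.7 after 5-Fu injection. HS thus lay below NS for the protease and overlapped NS for the inhibitor.

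CASP14 (ENSOCUG00000002710, scaffold GL018829, 812110 to 814364, reverse strand) had the widest range of the members. It was at 25.8, 20.7 and 12.2 FPKM in NS, at 44.4, 9.57 and 16.3 in HS and at 48.0, 42.4 and 141 with drug-loaded MNs. After 5-Fu injection it was at 56.7, 11.6 and 2.28 FPKM, and its highest sample was 62.0 times its lowest. The 5-Fu injection samples spanned the range of NS and HS in both directions.

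**Figure D1:**
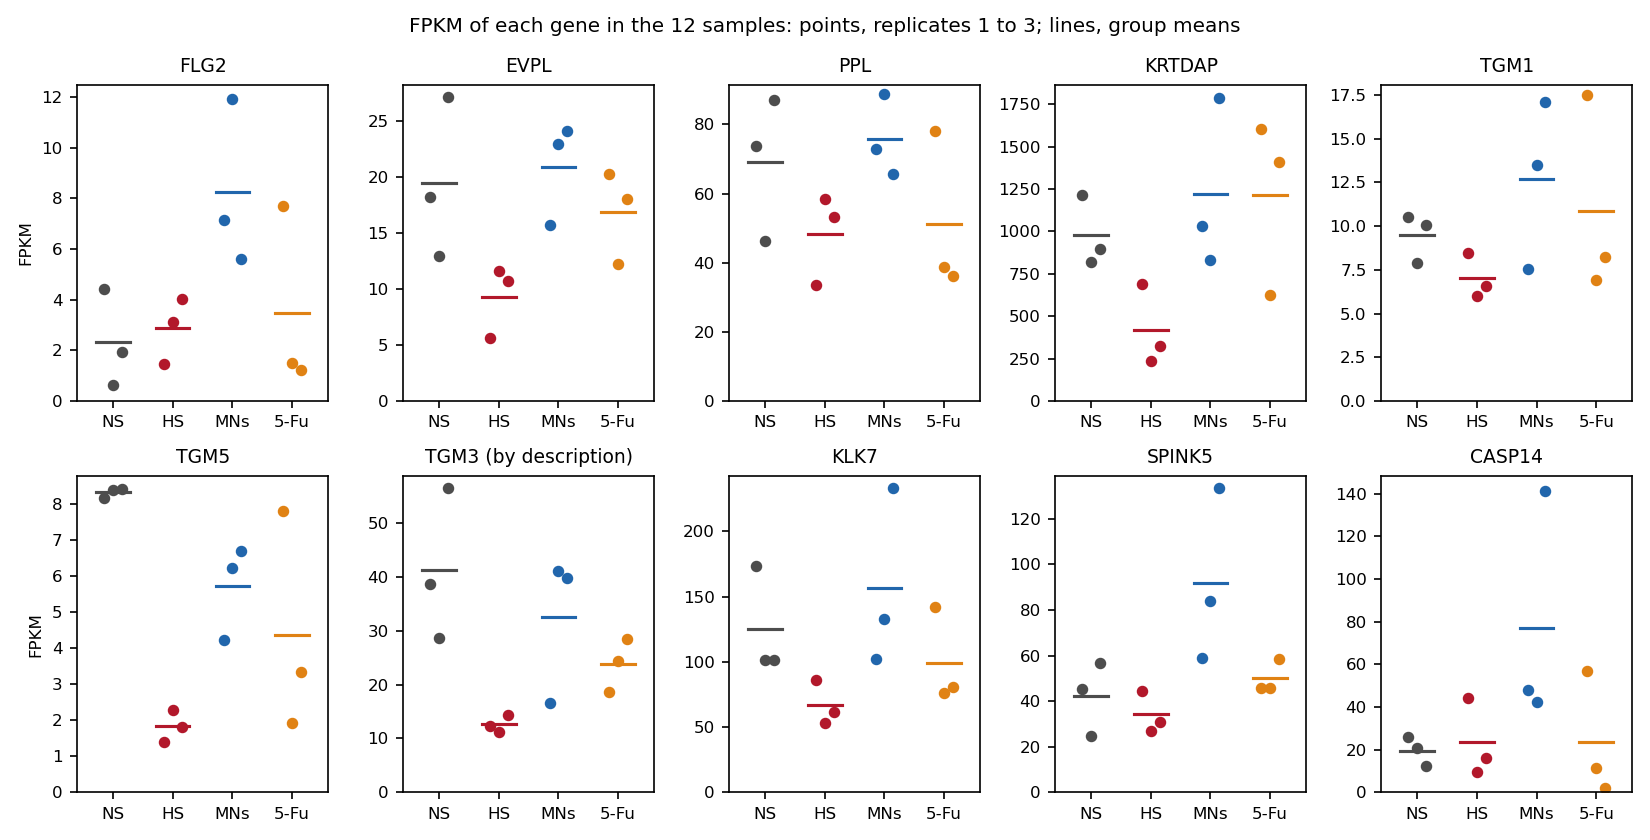
FPKM of the 9 members and the TGM3 row on linear axes from 0, with 1 point per sample and a line at each group mean (n = 3). HS lies below all other samples for EVPL and the TGM3 row, and replicate 1 of 5-Fu injection lies above the other two samples of its group for every member except SPINK5.

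By group mean, drug-loaded MNs were highest for 8 of the 9 members and NS for TGM5. HS was lowest for 7, and NS for FLG2 and CASP14. For EVPL, PPL and KLK7 the order from low to high was HS, 5-Fu injection, NS, drug-loaded MNs, and for TGM1, SPINK5 and KRTDAP the middle groups were exchanged. Neighbours in the order that did not overlap were HS and 5-Fu injection for EVPL, HS and NS for KRTDAP, 5-Fu injection and drug-loaded MNs for SPINK5, and drug-loaded MNs and NS for TGM5. The other neighbours overlapped, as did KRTDAP at 1212 ± 518 FPKM after 5-Fu injection and 1218 ± 504 with drug-loaded MNs (SD, n = 3). Replicate 3 of the drug-loaded MNs held the highest value of 4 members, and HS replicates 1 and 2 each held the lowest of 3.

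The first comparison asked how scar differed from normal skin. Of the 9 members, 7 had a lower mean log2 level in HS and 2 a higher one, where 48.6% of all genes were higher, and 1 of the 7, TGM5, was called lower; calls needed an adjusted p under 0.05 and a log2 difference above 1 in size (limma, Benjamini-Hochberg over all genes tested). Over all 13287 genes tested, 5.00% were called, and 1.48% were called lower in HS. TGM5 fell by 1.73 ± 0.33 on the log2(FPKM + 1) scale (SE, adjusted p = 0.0114), and its mean FPKM in NS was 4.54 times that in HS. The TGM3 row fell by 1.59 ± 0.33 (SE, adjusted p = 0.0177), a ratio of 3.27. The call of the TGM3 row was lost without NS replicate 1 or 3 or HS replicate 1 or 2, at adjusted p = 0.0509 to 0.0618, while that of TGM5 was kept whichever sample was left out.

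KRTDAP, EVPL and KLK7 did not pass in HS against NS although their samples did not overlap: their log2 differences were -1.36 ± 0.45 (adjusted p = 0.0998), -0.98 ± 0.32 (adjusted p = 0.0886) and -0.87 ± 0.35 (adjusted p = 0.156). With TGM5 that made 4 of 9 members with all HS samples below all NS samples, against 15.3% of all genes tested, and 4 members had an unadjusted p under 0.05, against 23.4%. The median log2 difference of the members was -0.50, and that of all genes tested -0.01. PPL (-0.50), TGM1 (-0.39) and SPINK5 (-0.25) lay closer to 0, and the 95% intervals of FLG2 (-0.90 to 1.56) and CASP14 (-1.93 to 2.01) were wide on both sides of it. Scaled to the total of reads on genes, KRTDAP, EVPL and KLK7 were also called lower, making 4 members, in a scaling that moved the median of all genes to -0.33 and turned the split of all calls from 469 higher and 196 lower to 311 higher and 748 lower.

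Against untreated scar, all 9 members were higher with drug-loaded MNs, by 0.66 to 1.73 on the log2 scale, as were 46.8% of all genes. Their median was 1.24, and that of all genes -0.02. None passed the test in limma, at a lowest adjusted p of 0.248. In this comparison 0.00753% of all genes were called, that is 1 gene, TLX1, a homeobox gene outside the members (log2 difference 1.32, adjusted p = 0.0290; named because it was the single call). With single samples left out, 11 of 12 fits called no gene here, the exception being without drug-loaded MNs replicate 1, and the fit with a replicate block called none. At an unadjusted p under 0.05 there were 6 members, against 8.90% of all genes; limma voom on reads counted back from the FPKM had 7 and called 0.

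The samples of 7 members did not overlap, with every drug-loaded MNs value above every HS value, against 8.53% of genes higher in this way. SPINK5 had a mean 2.69 times that of HS (log2 difference 1.35 ± 0.34 SE, adjusted p = 0.248). TGM5 was at 3.12 times its HS mean (1.24 ± 0.33, adjusted p = 0.300), KRTDAP at 2.93 times (1.62 ± 0.45, adjusted p = 0.319), EVPL at 2.25 times (1.12 ± 0.32, adjusted p = 0.323) and KLK7 at 2.33 times (1.15 ± 0.35, adjusted p = 0.350). CASP14 had the largest difference, 1.73, and the widest interval, -0.24 to 3.70, with 1 sample of 141 FPKM behind its mean. TGM1 and CASP14 were the members whose groups overlapped. The TGM3 row was 2.58 times its HS mean (1.20 ± 0.33, adjusted p = 0.310).

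After 5-Fu injection 7 of the 9 members had a higher mean log2 level than in HS, with a median log2 difference of 0.53, and FLG2 (-0.03) and CASP14 (-0.60) did not. Their mean FPKM was nevertheless higher than in HS, at 3.47 against 2.87 for FLG2 and 23.6 against 23.4 for CASP14. Of all genes 51.4% were higher, with a median of 0.02. No member was called in limma or voom, and 3 had an unadjusted p under 0.05 in each, against 26.0% of all genes. Of all genes 2.29% were called, and 0.512% were called higher. KRTDAP came nearest, at a log2 difference of 1.58 ± 0.45 (adjusted p = 0.0686), followed by EVPL at 0.82 ± 0.32 (adjusted p = 0.138) and TGM5 at 0.78 ± 0.33 (adjusted p = 0.169). EVPL and SPINK5 were the members with no overlap between the groups, where 13.9% of all genes were higher without overlap. Without replicate 2, whose fibroblast genes stood apart, KRTDAP (2.00, adjusted p = 0.0216) and TGM5 (1.14, adjusted p = 0.0367) were called higher, in a fit that called 803 genes in place of 304. Without replicate 1, by contrast, 0 members and 16 genes were called, 1 member had an unadjusted p under 0.05, 6 of 9 were higher and their median fell from 0.53 to 0.25. Of 13253 genes tested in that fit, 3038 had such a p. Without replicate 3 all 9 members were higher, FLG2 by 0.32 and CASP14 by 0.42, with a median of 0.61. In that fit 0 members and 12 genes were called, and 1 member had an unadjusted p under 0.05, as had 2607 of 13295 genes tested. The HS samples enter both treatment comparisons, so the members' values in them are not independent of each other.

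The treatments were compared directly. All 9 members had a higher mean log2 level with drug-loaded MNs than after 5-Fu injection, from 0.04 for KRTDAP to 2.33 for CASP14, as did 50.3% of all genes, and no gene of the table was called (0% of 13287; 2009 genes, 15.1%, had an unadjusted p under 0.05, and voom also called 0). CASP14 (2.33 ± 0.90 SE, adjusted p = 0.294), FLG2 (1.29 ± 0.56, adjusted p = 0.320) and SPINK5 (0.79 ± 0.34, adjusted p = 0.313) had an unadjusted p under 0.05. SPINK5 alone had no overlap (8.64% of all genes were higher without overlap), with 58.8 FPKM as its lowest drug-loaded MNs sample and 58.7 as its highest 5-Fu injection sample. For KRTDAP the 95% interval was -0.96 to 1.04 and for TGM1 -0.49 to 0.98. The intervals of EVPL (-0.39 to 1.00), PPL (-0.08 to 1.35), TGM5 (-0.27 to 1.19) and KLK7 (-0.14 to 1.38) crossed 0 too. With no gene called, neither treatment could be placed above the other in any member. Without 5-Fu injection replicate 2, 8 of 9 members were higher, 0 had an unadjusted p under 0.05, and 12 genes were called, none of them a member. Without replicate 1 all 9 were higher, 5 had an unadjusted p under 0.05, and 0 genes were called. Over all genes, 2305 of 13306 tested had such a p without replicate 2, and 2415 of 13253 without replicate 1.

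**Figure D2:**
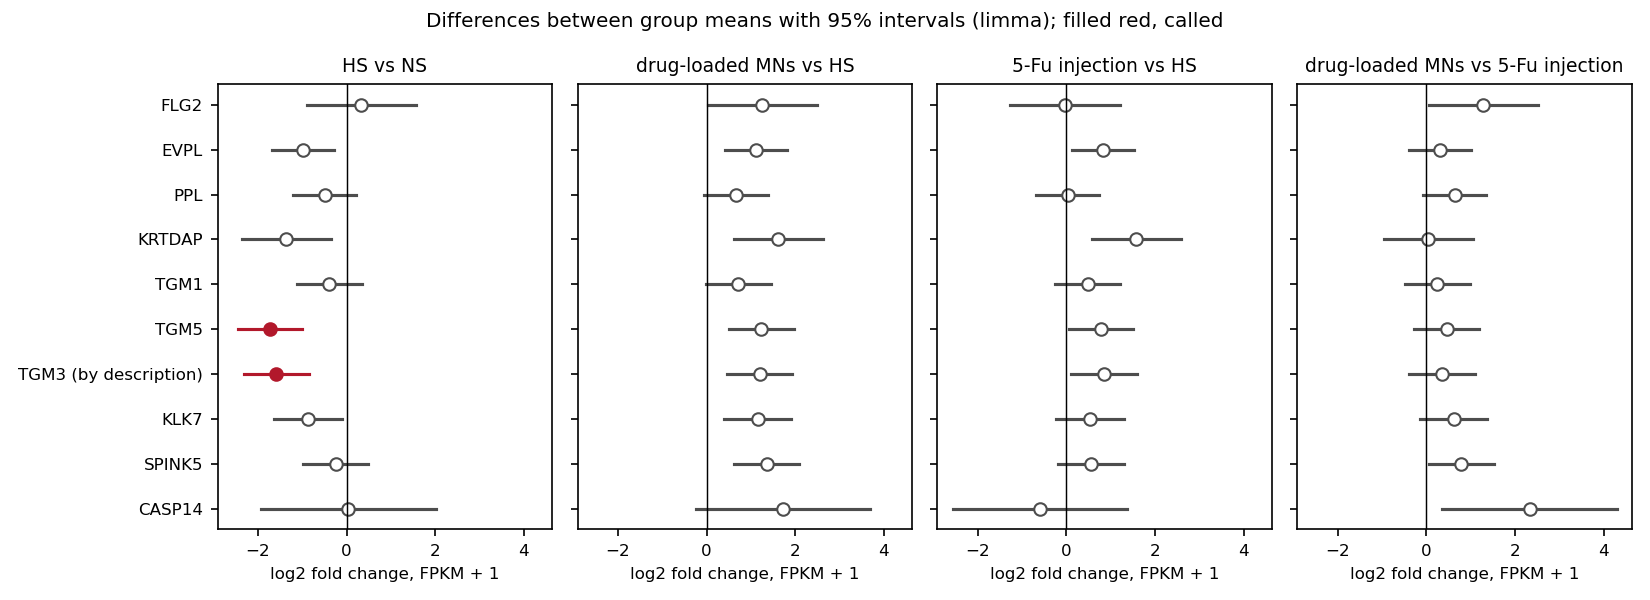
Log2 differences on the log2(FPKM + 1) scale for the 9 members and the TGM3 row in 4 comparisons, as points with 95% intervals from limma (n = 3 per group). TGM5 (-1.73) and the TGM3 row (-1.59) in HS against NS are filled as called; with drug-loaded MNs against HS every point lies right of 0, from 0.66 to 1.73, and none is called.

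Treated scar was also compared with normal skin. With drug-loaded MNs 8 of 9 members were higher than in NS (50.2% of all genes) and 0 were called by limma (0.873% of all genes were); SPINK5 (1.10 ± 0.34, adjusted p = 0.181) and FLG2 (1.59 ± 0.56, adjusted p = 0.253) had an unadjusted p under 0.05. Over all genes 12.9% had such a p. FLG2, SPINK5 and CASP14 had no overlap upward (11.5% of all genes), and TGM5 none downward (9.11% of all genes), at -0.49 ± 0.33 (adjusted p = 0.569). After 5-Fu injection 4 members had a higher mean log2 level than in NS and 5 a lower one (50.6% of all genes were higher), and 0 were called by limma (0.00753% of all genes, which is PLA2G7). CASP14, lower on that scale (-0.56), had a higher mean FPKM, 23.6 against 19.6. TGM5 had the largest difference there, -0.95 ± 0.33 (adjusted p = 0.247). It was the single member with an unadjusted p under 0.05 (14.9% of all genes) and the single one lower without overlap (9.16%). Without 5-Fu injection replicate 2 that p was lost and 5 of 9 members were higher. Without replicate 1, 1 of 9 was higher and 2 had such a p, with 0 called in either. Over all genes, 1909 of 13306 tested had such a p without replicate 2, and 2256 of 13253 without replicate 1.

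In bulk tissue, fewer keratinocytes and less RNA of a gene per keratinocyte cannot be told apart, so the members were set beside keratinocyte markers. The 9 basal keratinocyte genes measured all had a lower mean log2 level in HS than in NS. By mean FPKM LAMA3 was not lower, at 9.84 in HS and 9.75 in NS. KRT5, KRT15 and COL17A1 were called (-1.34, -1.55 and -1.25, adjusted p of 0.0248 to 0.0420). Each lost its call when HS replicate 1, 2 or 3, NS replicate 1 or 3 and, for the keratins, NS replicate 2 was left out, and KRT5 also without drug-loaded MNs replicate 2. KRT5 and COL17A1 also lost theirs with no filter on low values. The summed FPKM of the 9 basal genes was 1045 to 1374 in NS, 486 to 526 in HS, 850 to 1937 with drug-loaded MNs and 890 to 1635 after 5-Fu injection, with none at 0. Of the 10 suprabasal genes 8 were lower in HS and KRT2 was called (-1.95, adjusted p = 0.0268). That call was lost when NS replicate 1 or 3 or any single HS replicate was left out, with no filter on low values and with the replicate block. All 10 were higher with drug-loaded MNs than in HS, with 0 called. The suprabasal sum was 3067 to 7490 FPKM in NS, 2155 to 2887 in HS, 5921 to 11920 with drug-loaded MNs and 3373 to 8518 after 5-Fu injection. The part of these markers in the members' differences was not tested beyond the following alternative.

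With the mean of the basal genes subtracted in each sample, 5 of 9 members were higher in HS than in NS, none was called, and the median was 0.37. Of all 13287 genes tested, 4549 were called higher and 44 lower in this fit. TGM5 still had a lower value in HS but lost its call (-0.86, adjusted p = 0.0512), and the TGM3 row lost its call too, since its difference was -0.72 (adjusted p = 0.0391). SPINK5 turned to 0.62 (adjusted p = 0.0671) and TGM1 to 0.47 (adjusted p = 0.220). In this scaling the median of all genes was 0.85 in HS against NS and -0.79 with drug-loaded MNs against HS, where the members' median was 0.47 in place of 1.24. In that comparison 7 of 9 were higher, PPL (-0.10) and TGM1 (-0.05) were not, and 0 members had an unadjusted p under 0.05, against 6 without the subtraction. Of all 13287 genes tested, 7973 had such a p there, and 17 were called higher and 2379 lower. After 5-Fu injection against HS the members' median was 0.02, and that of all genes -0.50.

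As a percent of the summed basal FPKM, TGM5 was at 0.645, 0.804 and 0.614 in NS and at 0.269, 0.435 and 0.373 in HS. SPINK5 was at 3.56, 2.38 and 4.12 in NS and at 8.46, 5.17 and 6.35 in HS. TGM1 was at 0.830, 0.758 and 0.732 in NS and at 1.61, 1.14 and 1.36 in HS. Per summed basal FPKM, then, TGM5 lay lower in scar, and TGM1, SPINK5 and, narrowly, PPL (6.35 to 11.1 against 4.43 to 6.33) higher, each without overlap. The sum itself was 1045 to 1374 FPKM in NS and 486 to 526 in HS, so a gene of unchanged FPKM has a higher percent in HS. With the basal mean subtracted, SPINK5 (0.62), TGM1 (0.47) and PPL (0.37) lay below the median of all genes, 0.85. FLG2 (1.20) and CASP14 (0.90) lay above that median. KRT5 and KRT15 were the largest terms of that sum, at means of 584 and 315 FPKM in NS and 230 and 107 in HS. The basal genes ITGA6 (37.8 and 33.4) and LAMA3 (9.75 and 9.84) differed far less, and percents of single basal genes were not tested. KLK7 was at 13.1 ± 3.09% in HS and 12.4 ± 0.598% with drug-loaded MNs (SD, n = 3), and these groups overlapped.

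**Figure D3:**
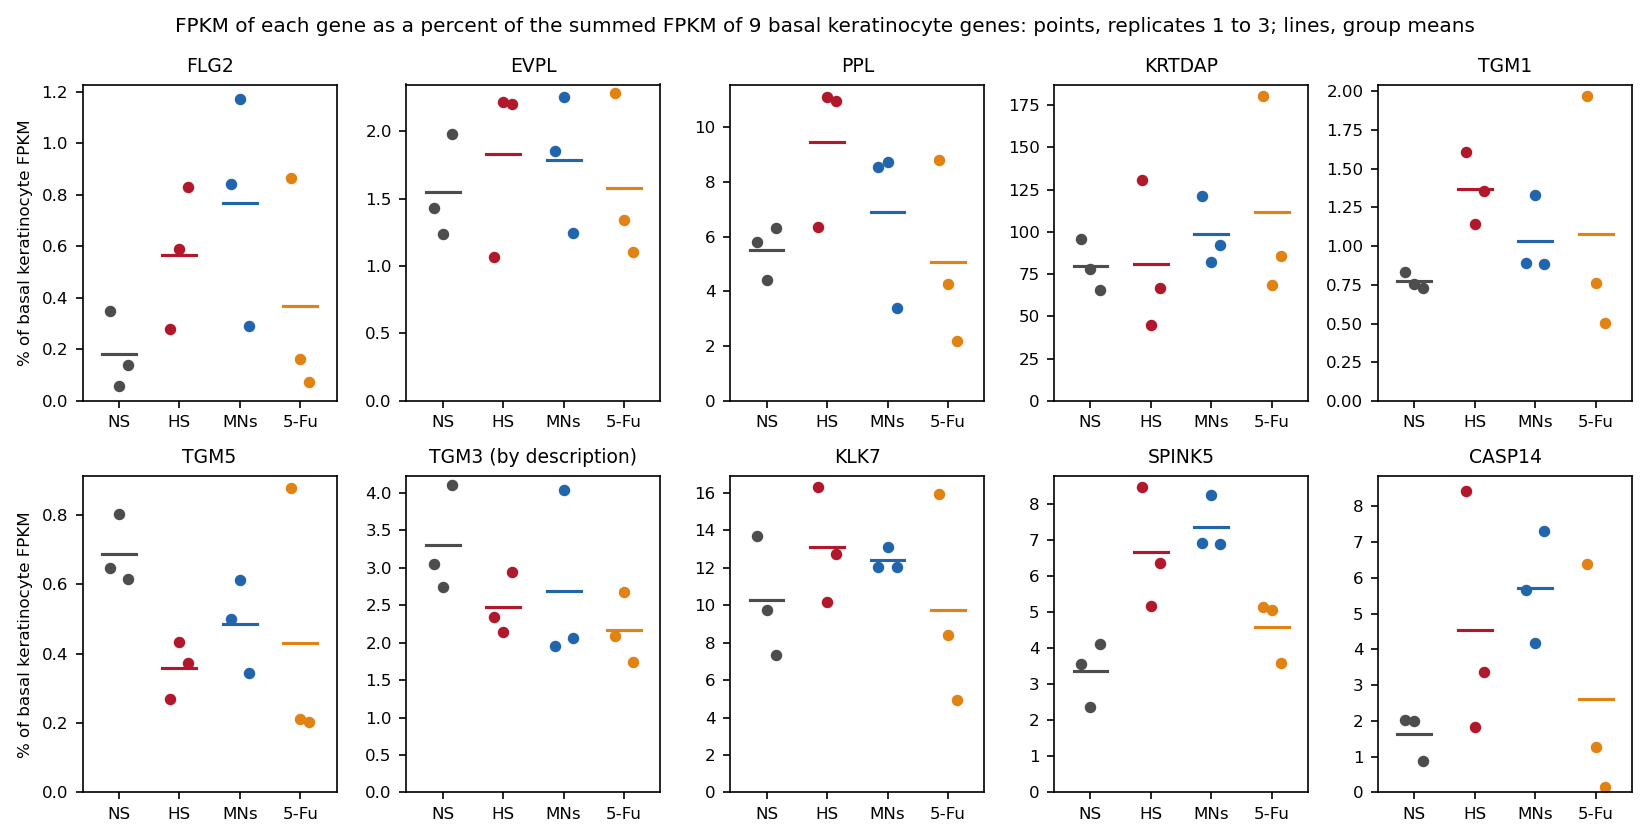
FPKM of each member and of the TGM3 row as a percent of the summed FPKM of 9 basal keratinocyte genes, on linear axes from 0, with 1 point per sample and a line at each group mean (n = 3). TGM5 is lower in HS (0.269 to 0.435%) than in NS (0.614 to 0.804%), and SPINK5 is higher (5.17 to 8.46% against 2.38 to 4.12%). The summed basal FPKM is 1045 to 1374 in NS and 486 to 526 in HS, so a gene of unchanged FPKM has a higher percent in HS.

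Ratios of 3 pairs of partner genes were taken within each sample, after their levels had been seen; a ratio does not move with the scaling of a sample or with the amount of epidermis that both genes share. The ratio of EVPL to PPL was 0.247, 0.279 and 0.313 in NS and 0.168, 0.199 and 0.201 in HS. It was 0.216, 0.259 and 0.367 with drug-loaded MNs and 0.260, 0.314 and 0.499 after 5-Fu injection, so every HS sample was below all others. The ratio of TGM5 to TGM1 was 0.778, 1.06 and 0.839 in NS, 0.167, 0.381 and 0.275 in HS, 0.561, 0.461 and 0.391 with drug-loaded MNs and 0.446, 0.280 and 0.404 after 5-Fu injection. Both treated groups stayed below NS in this ratio. The ratio of the protease KLK7 to its inhibitor gene SPINK5 was 3.85, 4.09 and 1.79 in NS, 1.93, 1.97 and 2.00 in HS, 1.74, 1.59 and 1.75 with drug-loaded MNs and 3.10, 1.66 and 1.37 after 5-Fu injection. In exact two-sided permutation tests of 12 comparisons of these log2 ratios, the smallest p possible with 3 against 3 samples, 0.1, was reached for EVPL to PPL and TGM5 to TGM1 in HS against NS and in drug-loaded MNs against HS, for EVPL to PPL in 5-Fu injection against HS, and for KLK7 to SPINK5 in drug-loaded MNs against HS. All 6 had an adjusted p of 0.2, and such a design cannot reach 0.05.

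The members did not move as 1 block. Over the 12 samples the correlation of a member with the mean of the other members ran from 0.57 for CASP14 and 0.59 for FLG2 to 0.88 for TGM1 and KLK7, as a description of samples that share group and tissue mixture. The closest pair was TGM1 and KLK7 (r = 0.87), and EVPL and CASP14 were among the least alike (r = 0.12). The mean standardised level of the 9 members was -0.95 to -0.76 in HS and 0.27 to 1.28 with drug-loaded MNs. In NS it was 0.50, -0.41 and 0.32, and after 5-Fu injection 0.87, -0.73 and -0.47, with replicate 1 within the range of the drug-loaded MNs and the others below it.

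The genes whose levels followed that mean most closely, of all tested genes outside the members with a symbol or, as for DSC3, a matched protein name, were TMEM54 (r = 0.98), KCTD9 and DSC3 (both 0.96), PLA2G4E, KRT10 and ACER1 (all 0.95), JUP (0.94), and EPHA1, PHYHIP and BBOX1 (all 0.93). DSC3 and JUP encode proteins of desmosomes, KRT10 is the type I keratin of suprabasal cells, and ACER1 is a ceramidase of the epidermis. KRT10 was at 665 ± 113 FPKM in HS and 2373 ± 903 with drug-loaded MNs (SD, n = 3), where DSC3 was at a mean of 12.6 and 29.4.

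Other cornified envelope genes with a row numbered 21, all tested. In HS against NS 14 were lower and 1, DMKN, was called lower (-1.40 ± 0.34, adjusted p = 0.0317), with a median of -0.52. DMKN, dermokine, is a secreted protein of suprabasal cells; its row shares a stretch of 34516 bases of scaffold GL018786 with KRTDAP and SBSN. DMKN was at 493, 283 and 643 FPKM in NS, 218, 136 and 161 in HS, 389, 542 and 596 with drug-loaded MNs and 657, 312 and 423 after 5-Fu injection, and it was called higher after 5-Fu injection than in HS (1.39, adjusted p = 0.0467). That call was lost when NS replicate 1, any single HS or drug-loaded MNs replicate or 5-Fu injection replicate 1 or 3 was left out, at an adjusted p of up to 0.137, and under 6 other alternatives, among them quantile normalization and the fit of only these groups. The call in HS against NS was lost when NS replicate 1 or 3 or any single HS replicate was left out (up to 0.112), with no filter on low values and with the basal keratinocyte mean subtracted. With drug-loaded MNs against HS 19 of the 21 were higher, 12 without overlap, with a median of 1.29 and 0 called; after 5-Fu injection 14 were higher, with a median of 0.79. HRNR, hornerin, a filaggrin-like protein encoded near FLG2 on chromosome 13 and named after its values were seen, was at 12.5, 1.67 and 7.23 FPKM in NS and 15.3, 19.0 and 30.0 in HS. It was at 33.4, 89.7 and 84.6 FPKM with drug-loaded MNs and at 20.3, 1.58 and 0.506 after 5-Fu injection, low in the same 5-Fu injection replicates as FLG2 and CASP14. In the lowest of these, replicate 3, KRT16, a keratin of activated epidermis, was at 2365 FPKM, against 193 in replicate 1 and 895 in replicate 2. In drug-loaded MNs replicate 3 KRT16 was also high, at 2090 FPKM. There CASP14 was at 141, HRNR at 84.6 and FLG2 at 5.62 FPKM. KRT16 is named after its values were seen, and its part in the low values was not tested.

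Of the other proteases, inhibitors and crosslinking enzymes of the barrier, 35 of 40 genes with a row were tested. In HS against NS 21 were lower, with a median of -0.35, and SERPINB8, an intracellular serine protease inhibitor (-1.56 ± 0.36, adjusted p = 0.0259), and F13A1, the coagulation transglutaminase factor XIII A (-1.85 ± 0.39, adjusted p = 0.0180), were called lower. F13A1 is also made by macrophages of the dermis. SERPINB8 was at 26.2, 19.0 and 34.3 FPKM in NS, 5.39, 8.52 and 11.2 in HS, 26.2, 32.2 and 18.6 with drug-loaded MNs and 36.0, 13.8 and 28.2 after 5-Fu injection, where it was called higher than in HS (1.47, adjusted p = 0.0458). That call was lost with 9 of the 12 samples left out in turn, all but NS replicate 2, drug-loaded MNs replicate 3 and 5-Fu injection replicate 2, at an adjusted p of up to 0.144, and under 6 other alternatives, voom among them. The call of SERPINB8 in HS against NS was lost without NS replicate 1 or 3 or HS replicate 1 or 2, and that of F13A1 without NS replicate 1 or HS replicate 1 or 2 (up to 0.0971 and 0.0773); both were also lost with the basal keratinocyte mean subtracted. With drug-loaded MNs against HS 28 of the 35 were higher, 15 of them without overlap, with a median of 1.07 and 0 called. With drug-loaded MNs against NS 27 were higher and 8 lower, and the transglutaminase gene TGM2 was called lower (-1.08 ± 0.20 SE, adjusted p = 0.0327). That call was lost with 7 of the 12 samples left out in turn, at an adjusted p of up to 0.143. It was also lost under 4 other alternatives, among them the replicate block. The kallikrein genes beside KLK7 on scaffold GL019228, named for that position after their values were seen, included KLK5, which activates KLK7, at a mean of 11.6 FPKM in NS, 10.1 in HS, 28.1 with drug-loaded MNs and 16.7 after 5-Fu injection. In the same order KLK6 was at 30.7, 24.1, 30.7 and 14.5 FPKM, KLK8 at 10.6, 13.9, 42.8 and 32.3, and KLK9 at 3.10, 4.61, 10.1 and 5.72. KLK11 was at 19.4, 9.69, 26.7 and 19.9 FPKM and KLK13 at 3.29, 5.14, 11.1 and 2.38. All 6 had higher means with drug-loaded MNs than in HS, while KLK6 and KLK13 had lower means after 5-Fu injection. With drug-loaded MNs only KLK8 and KLK11 lay above all HS samples, and KLK5, KLK6, KLK9 and KLK13 overlapped HS. KLK6, for instance, was at 19.5, 11.0 and 61.5 FPKM with drug-loaded MNs and at 50.7, 7.95 and 13.6 in HS. None of these kallikrein genes was called in any of the 6 comparisons. The coordinates of KLK9 overlap those of KLK11 on the same strand.

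Of 35 transcription factors of keratinocyte differentiation, 30 were lower in HS than in NS. OVOL1 (-1.17, adjusted p = 0.0149), OVOL2 (-1.26, adjusted p = 0.00417), KLF5 (-1.32, adjusted p = 0.0101) and CEBPA (-1.11, adjusted p = 0.0259) were called lower. The calls of OVOL2 and KLF5 held whichever sample was left out, while OVOL1 lost its call without NS replicate 1 or HS replicate 2 and CEBPA without NS replicate 1 or 3 or HS replicate 1 or 3. With the basal mean subtracted none of these 4 was called. OVOL1 and OVOL2 are zinc finger repressors that hold the epithelial state, and KLF5 and CEBPA act in epidermal and sebaceous cells. With drug-loaded MNs against HS 32 of the 35 were higher and 0 were called, with a median of 0.65.

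**Figure D4:**
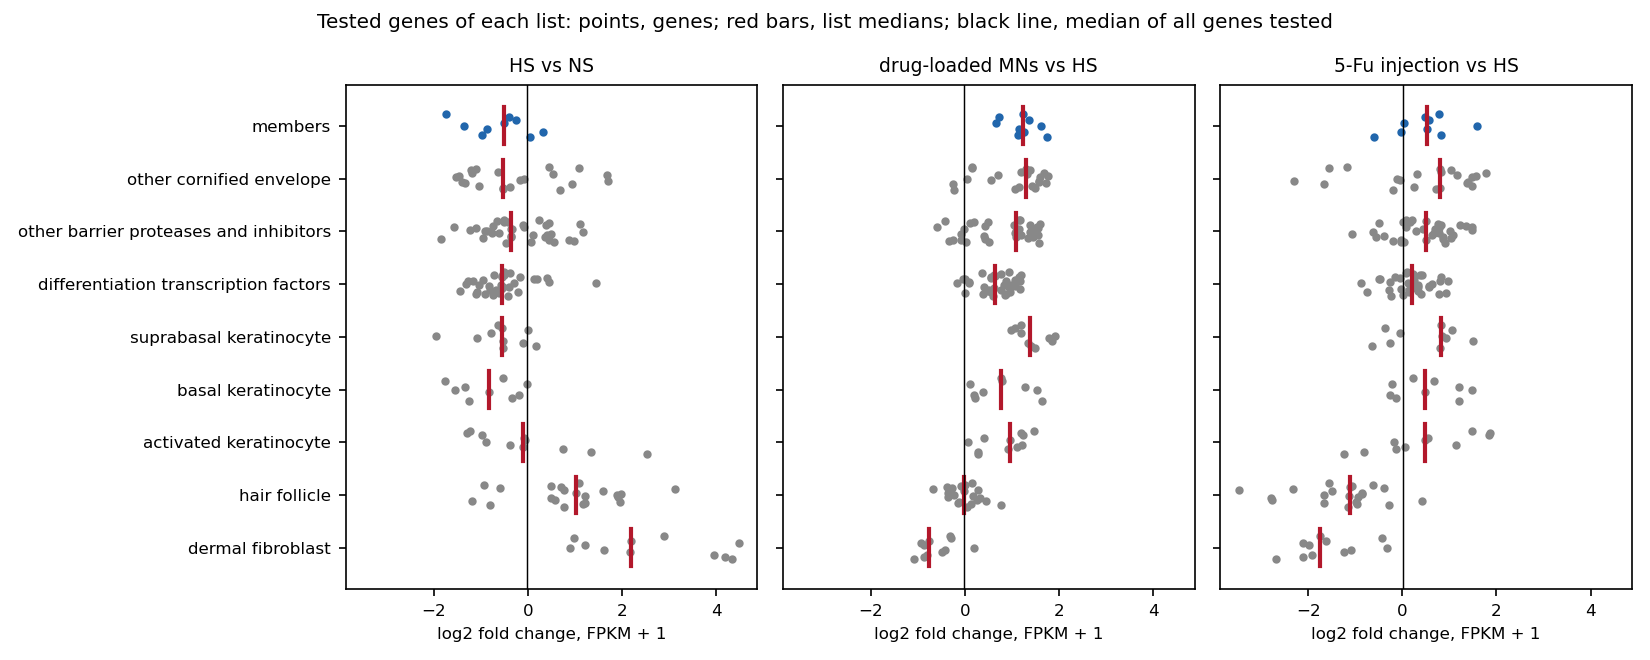
Log2 differences of the tested genes of 9 lists in 3 comparisons, with 1 point per gene, a red bar at each list median and a black line at the median of all genes tested. The members' medians are -0.50, 1.24 and 0.53 from left to right, beside -0.52, 1.29 and 0.79 for the other cornified envelope genes and -0.82, 0.76 and 0.47 for the basal keratinocyte genes.

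Hair follicle genes, whose products share transglutaminases and trichohyalin with the envelope, had a sum of 866, 111 and 709 FPKM in NS and 162, 1394 and 1836 in HS, with NS replicate 2 and HS replicate 1 apart from their groups. The sum was 367 to 1206 FPKM with drug-loaded MNs and 257 to 424 after 5-Fu injection. Of 21 tested, 17 were higher in HS than in NS with LGR5, a stem cell receptor, called (3.13, adjusted p = 0.00177), and 20 were lower after 5-Fu injection than in HS with LGR5 called (-2.32, adjusted p = 0.0240). The second call was lost when any single HS replicate or 5-Fu injection replicate 1 or 3 was left out, and the first was kept whichever sample was left out. LGR5 was at 1.69, 1.15 and 1.53 FPKM in NS and 20.5, 22.3 and 18.7 in HS, so it did not share the spread of the sum. No other gene of the list was called in these comparisons. The median of the list with drug-loaded MNs against HS was -0.02. The part of hair follicle genes in the members' values was not tested.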

How the data were processed

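Poly-A RNA-seq of 12 rabbit ear samples was deposited by the authors as a table of FPKM per gene; the aligner, counter and genome build behind it are not given in the sources used here. The 3 samples of a group were taken as 3 different rabbits. The FPKM values checked, 16144 to 16725 genes a sample, were whole multiples of the value of 1 read, within 0.02 reads, so reads were counted back. Log2(FPKM + 1) was fitted with limma 3.58.1 (R 4.3.3; trend, 4 groups in 1 fit) for genes whose FPKM averaged 1 or more, in 6 comparisons; p was adjusted by Benjamini-Hochberg, and a call needed it under 0.05 with a log2 difference above 1 in size. The fit was tested on simulated data.

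The members and lists were chosen with earlier results of these data known. Named outside the members were the genes of a list that were called, otherwise the 2 with the largest difference, and the 10 most correlated genes with a symbol or matched protein name; exceptions are stated, and a single gene is not reported here. For 40 listed genes the row was found by protein name, after the names in the table had been seen. Alternatives covered the pseudocount, filter, scaling, tool, block and each sample left out. The replicate numbers were not taken to pair the rabbits: correlations of the deviations of same-numbered samples ran from -0.27 to 0.44 over the 6 comparisons, and in none did all 3 numbers exceed 0.1. Sequences were not used here. The total FPKM library size per read on genes was 1.12 to 1.20 in NS and 0.873 to 0.932 in HS, which the FPKM values carry. Intervals assume that the 3 rabbits of a group stand for it.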

Additional observations from a re-analysis of the deposited data

How the results depend on the processing

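Calls among the members depended on the scaling in HS against NS: 2 members were called after quantile normalization (KRTDAP at -1.51, adjusted p = 0.0430), 4 after rescaling to the reads on genes, 0 after subtraction of the basal mean and 2 with a replicate block (KRTDAP at -1.36, adjusted p = 0.0476). With drug-loaded MNs against HS 0 members were called under any alternative run. The replicate numbers do not pair the rabbits; with the block, calls over all genes went to 0 with drug-loaded MNs against HS, 99 with 5-Fu injection against HS, 23 with drug-loaded MNs against NS and 0 with 5-Fu injection against NS.

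Over all genes, HS against NS had 665 calls, 1059 after rescaling to the reads on genes and 4593 after subtraction of the basal mean (382 to 752 with a sample left out). Drug-loaded MNs against HS had 2 calls with no filter, 2 without the trend, 37 with only these groups fitted, 0 in voom and 2396 with the basal mean subtracted (0 to 2 with a sample left out). 5-Fu injection against HS had 304 calls, 68 of them higher, and 585 at an adjusted p under 0.05 alone, 93 with no filter, 0 with only these groups fitted and 1342 with the basal mean subtracted (0 to 803 with a sample left out, 0 to 2 members); rescaled to the reads it had 285, 125 of them higher. The direct comparison of the treatments had 1 call with no filter and 2 with the basal mean subtracted (0 to 12). Drug-loaded MNs against NS had 116 calls and 51 with no filter (0 to 176). 5-Fu injection against NS had 1 call, and 2 with a pseudocount of 0.1, 2 with no filter, 3 at a mean of at least 5 FPKM, 3 after quantile normalization, 4 rescaled to the reads, 17 with the basal mean subtracted, and 0 with only these groups fitted or without the trend (0 to 20). The causes of these moves were not tested.

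Uncalled members changed sign as follows. With the basal mean subtracted, HS against NS gave PPL 0.37, TGM1 0.47 and SPINK5 0.62; drug-loaded MNs against HS gave PPL -0.10 and TGM1 -0.045; 5-Fu injection against HS gave PPL -0.49 and TGM1 -0.039. It also gave TGM1 -0.0061 and KRTDAP -0.21 between the treatments, and EVPL 0.19 and KLK7 0.0085 in 5-Fu injection against NS. Rescaled to the reads, CASP14 was -0.31 in HS against NS, FLG2 0.071 in 5-Fu injection against HS, EVPL -0.064 and PPL -0.043 in drug-loaded MNs against NS, and TGM1 -0.12 and KRTDAP -0.0041 in 5-Fu injection against NS, where quantile normalization gave KRTDAP -0.25. With a sample left out, FLG2 ran from -0.10 to 0.77 and CASP14 from -0.55 to 0.51 in HS against NS. In 5-Fu injection against HS, FLG2 ran from -0.66 to 0.32, PPL from -0.32 to 0.23 and CASP14 from -1.65 to 0.42, and between the treatments KRTDAP ran from -0.38 to 0.30. In drug-loaded MNs against NS, EVPL ran from -0.11 to 0.40, PPL from -0.091 to 0.36, KLK7 from -0.054 to 0.54, KRTDAP from -0.052 to 0.50 and the TGM3 row from -0.61 to 0.027. In 5-Fu injection against NS, FLG2 ran from -0.33 to 0.74, EVPL from -0.41 to 0.10, TGM1 from -0.29 to 0.33, SPINK5 from -0.022 to 0.56, CASP14 from -1.62 to 0.45 and KRTDAP from -0.037 to 0.64.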

Other observations

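The summed FPKM of 12 genes of activated keratinocytes was 4736, 9919 and 998 in NS, 5318, 807 and 1613 in HS, 3491, 1251 and 11230 with drug-loaded MNs and 845, 3903 and 10668 after 5-Fu injection. S100A9, a calcium-binding protein of neutrophils and stressed keratinocytes, named after its values were seen, was at 42.7 to 3791 FPKM in NS alone. GJB6, a gap junction protein of activated epidermis, was called higher in HS than in NS (1.34, adjusted p = 0.0467; lost with 8 of the 12 samples left out in turn, among them each NS replicate and HS replicates 1 and 3, and in voom), at 7.54, 5.38 and 8.56 FPKM in NS and 26.5, 10.7 and 25.0 in HS. IL36G, an interleukin-1 family cytokine of keratinocytes, was called higher with drug-loaded MNs than in NS (1.68, adjusted p = 0.0361), at 27.9, 30.3 and 29.1 FPKM against 11.1, 4.63 and 11.2. That call was lost with 7 of the 12 samples left out in turn, among them each drug-loaded MNs replicate and NS replicates 1 and 2, and with the replicate block.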
